A study of Mus musculus with 36 samples.

Results

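The genes described here are 10 members of the IL-6 cytokine family and its signalling chain, measured by RNA-seq in mouse embryonic fibroblasts (MEFs): the ligands Il6, Lif, Il11, Clcf1 and Ctf1, the receptor chains Il6ra, Il6st, Osmr and Lifr, and the feedback inhibitor Socs3. They were chosen by name as members of the family, with earlier results of these data known, as rows of a table of 55487 genes. All 10 passed the filter on low counts, as did 15489 genes in total. The MEFs were primary cultures grown from mid-gestation embryos without head and organs, 3 per genotype and each from a different mouse. Each was treated for 5 h with 1 µM of the synthetic glucocorticoid dexamethasone (Dex) or with its solvent (vehicle).

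The cells carried 1 of 5 genotypes of the glucocorticoid receptor (GR), encoded by Nr3c1. GRwt/wt is wild type, GRD/D carries a point mutation in the DNA-binding domain that weakens dimerization, GRL/L carries a point mutation in the ligand-binding domain, GRD+L/D+L carries both on the same protein, and GRko/ko is a knockout. Run 1 held GRD/D, GRD+L/D+L, GRko/ko and 3 vehicle and 3 Dex libraries of GRwt/wt (replicates 1 to 3), and run 2 held GRL/L and 3 further vehicle and 3 Dex libraries of GRwt/wt (replicates 4 to 6). Each of the 12 groups of genotype, run and treatment therefore had 3 libraries, 36 in all. The strain is labelled FVB/NJ throughout, whereas the methods of the study describe the parents of the GRko/ko embryos as mice on a 129 Sv background, so that knockout and strain cannot be told apart there. The mutations are present in every cell and throughout development, and cultures of 1 genotype were compared with cultures of another, not with themselves before mutation. Mutants were compared with GRwt/wt of the same run, and levels set side by side across runs carry no test.

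IL-6 family cytokines are secreted signals that share the receptor chain gp130, the product of Il6st. IL-6 binds gp130 together with IL-6 receptor alpha (Il6ra), LIF together with the LIF receptor (Lifr), and oncostatin M together with the oncostatin M receptor (Osmr). The bound receptors activate JAK kinases and the transcription factor STAT3, and STAT3 induces Socs3, whose protein binds gp130 and switches the signal off. Fibroblasts are a source of IL-6, LIF and IL-11, and glucocorticoids are known to lower inflammatory cytokine production.

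The total count per library lay between 15280166 and 19102035 in run 1 and between 21532686 and 28662608 in run 2. Nr3c1 ranged from 15.9 to 20.4 CPM (read counts relative to library size, with TMM normalisation) in the 6 GRko/ko libraries and from 47.8 to 105 CPM in the other 30. The fibroblast markers (Col1a1, Col1a2, Col3a1, Vim, Pdgfra, Pdgfrb, Thy1 and Dcn) summed to between 19952 and 32062 CPM in every library. With vehicle, 12 macrophage markers summed to 207 to 368 CPM in GRwt/wt of run 1, 749 to 814 in GRD/D, 32.9 to 42.0 in GRD+L/D+L, 3140 to 3488 in GRko/ko, 502 to 527 in GRwt/wt of run 2 and 900 to 1070 in GRL/L. All 12 of these markers were higher than in GRwt/wt of the same run in GRD/D, GRL/L and GRko/ko, and all 12 were lower in GRD+L/D+L (adjusted p at most 0.05). With vehicle, cartilage markers summed to 186 to 574 CPM in GRko/ko, with 1 library at the top, against 30.9 to 34.7 in GRwt/wt of run 1. In GRko/ko 6 of the 7 tested were higher, where 45.7% of all genes differed in either direction. In GRL/L they summed to 113 to 116 CPM, against 67.0 to 83.4 in GRwt/wt of run 2. There 3 of the 7 were higher, where 11.3% of all genes differed. In GRD+L/D+L 2 were higher and 1 lower, where 29.9% of all genes differed. Skeletal muscle markers summed to 122 to 140 CPM in GRD+L/D+L and 65.9 to 68.4 in GRko/ko, against 22.4 to 28.2 in GRwt/wt of run 1. One GRwt/wt vehicle library of run 2 had epithelial markers at 47.3 CPM, against 2.15 CPM. In bulk RNA, fewer cells of a type and less RNA per cell cannot be told apart.

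The stretches of DNA around the transcription starts of Il6, Lif, Il11 and Socs3 are shown first, since the first 3 genes were lowered by Dex in every group with a GR and Socs3 only in some. They are RefSeq promoter windows of build GRCm38.p6, each running from 250 bases before to 50 bases after the start and written 5′ to 3′ on the gene's strand. Capitals mark matches to AP-1 (TGANTCA), kappaB (GGANTTTCC) and STAT (TTCNNNGAA) motifs on either strand. They lie at chr5:30012864-30013163 (plus strand) for Il6, chr11:4257318-4257617 (plus) for Lif, chr7:4778092-4778391 (minus) for Il11 and chr11:117969317-117969616 (minus) for Socs3, and the Il11 window is the one of 2 that held a match.
Il6: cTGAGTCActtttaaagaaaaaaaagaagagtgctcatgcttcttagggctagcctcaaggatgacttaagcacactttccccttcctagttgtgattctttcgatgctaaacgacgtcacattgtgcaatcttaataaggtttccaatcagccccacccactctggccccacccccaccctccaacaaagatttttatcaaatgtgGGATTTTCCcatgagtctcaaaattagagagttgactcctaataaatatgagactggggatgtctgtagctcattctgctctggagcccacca
Lif: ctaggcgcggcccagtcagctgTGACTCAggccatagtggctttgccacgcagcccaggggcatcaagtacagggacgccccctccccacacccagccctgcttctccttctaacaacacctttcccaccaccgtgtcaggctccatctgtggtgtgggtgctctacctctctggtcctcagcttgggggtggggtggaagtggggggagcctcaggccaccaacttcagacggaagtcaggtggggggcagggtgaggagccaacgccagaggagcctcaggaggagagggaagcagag
Il11: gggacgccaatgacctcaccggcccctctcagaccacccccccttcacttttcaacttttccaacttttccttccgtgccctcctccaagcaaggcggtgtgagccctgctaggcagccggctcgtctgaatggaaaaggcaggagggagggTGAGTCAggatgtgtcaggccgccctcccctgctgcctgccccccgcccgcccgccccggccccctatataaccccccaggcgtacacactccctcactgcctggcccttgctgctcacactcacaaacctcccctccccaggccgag
Socs3: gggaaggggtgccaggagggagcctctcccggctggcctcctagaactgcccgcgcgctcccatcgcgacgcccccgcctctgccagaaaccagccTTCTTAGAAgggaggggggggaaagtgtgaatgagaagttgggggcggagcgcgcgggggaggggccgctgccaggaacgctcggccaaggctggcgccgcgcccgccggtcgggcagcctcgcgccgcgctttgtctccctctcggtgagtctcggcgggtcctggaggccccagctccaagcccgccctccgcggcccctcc
The Il6 window held an AP-1 match, TGAGTCA, that began 249 bases before the start and a kappaB match, GGATTTTCC, that began 43 bases before it. The Lif window held TGACTCA 228 bases before the start, and the Il11 window held TGAGTCA 98 bases before it. The Socs3 window held the STAT match TTCTTAGAA 154 bases before its start. Of 32851 promoter windows of this length, 7.81% held the AP-1 motif, 1.25% the kappaB motif and 8.3% the STAT motif. Among the 11 windows found for 9 of the 10 genes, 1 more match was present, TGATTCA in Osmr, 3 bases after the start. For Clcf1, which Dex also lowered in every group with a GR, there was no window to examine. No window held the paired GR motif parts AGAACA and TGTTCT with 3 bases between, which 0.00913% of all windows held, nor CTCC and GGAGA with 0 to 2 bases between, which 1.72% held. A match is a description of the letters, and no binding was measured here.

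Dex lowered the ligands Il6, Lif, Il11 and Clcf1 in every genotype with a GR, whereas Il6ra was the only gene of the 10 raised in both runs of GRwt/wt. In GRwt/wt of run 1, 4 of the 10 genes were lower with Dex (Il6, Lif, Il11 and Clcf1) against 6.2% of all genes tested, and 1 was higher (Il6ra) against 7.74%. In GRwt/wt of run 2, 8 were lower (the same 4 ligands, Il6st, Osmr, Lifr and Socs3) against 16.7%, and 1 was higher (Il6ra) against 14.9%. Ctf1 passed the test in no group with all libraries. All calls are at an adjusted p of at most 0.05 by edgeR's quasi-likelihood test, adjusted over all genes tested.

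In GRD/D, 4 were lower (the 4 ligands) against 6.24% of all genes, and 2 were higher (Il6ra and Il6st) against 5.63%. In GRL/L, 7 were lower (the 4 ligands, Osmr, Lifr and Socs3) against 10.4%, and 1 was higher (Il6ra) against 8.79%. In GRD+L/D+L, 4 were lower (the 4 ligands) against 1.92%, and 1 was higher (Il6st) against 3.08%. In GRko/ko, 0 of the 10 genes were lower against 0% of all genes, and 0 were higher against 0%, and none of the 10 had an unadjusted p under 0.05 or was called by DESeq2. Over all genes, 859 had an unadjusted p under 0.05 in GRko/ko, where edgeR called 0 and DESeq2 called 1. The median log2 fold change of the 10 genes was −0.23 and −0.50 in GRwt/wt of run 1 and run 2, −0.25 in GRD/D, −0.37 in GRL/L, −0.20 in GRD+L/D+L and 0.08 in GRko/ko, while that of all genes lay between −0.0114 and −0.000266. The plot of Dex responses gives each gene's log2 fold change with its interval.

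**Figure D1:**
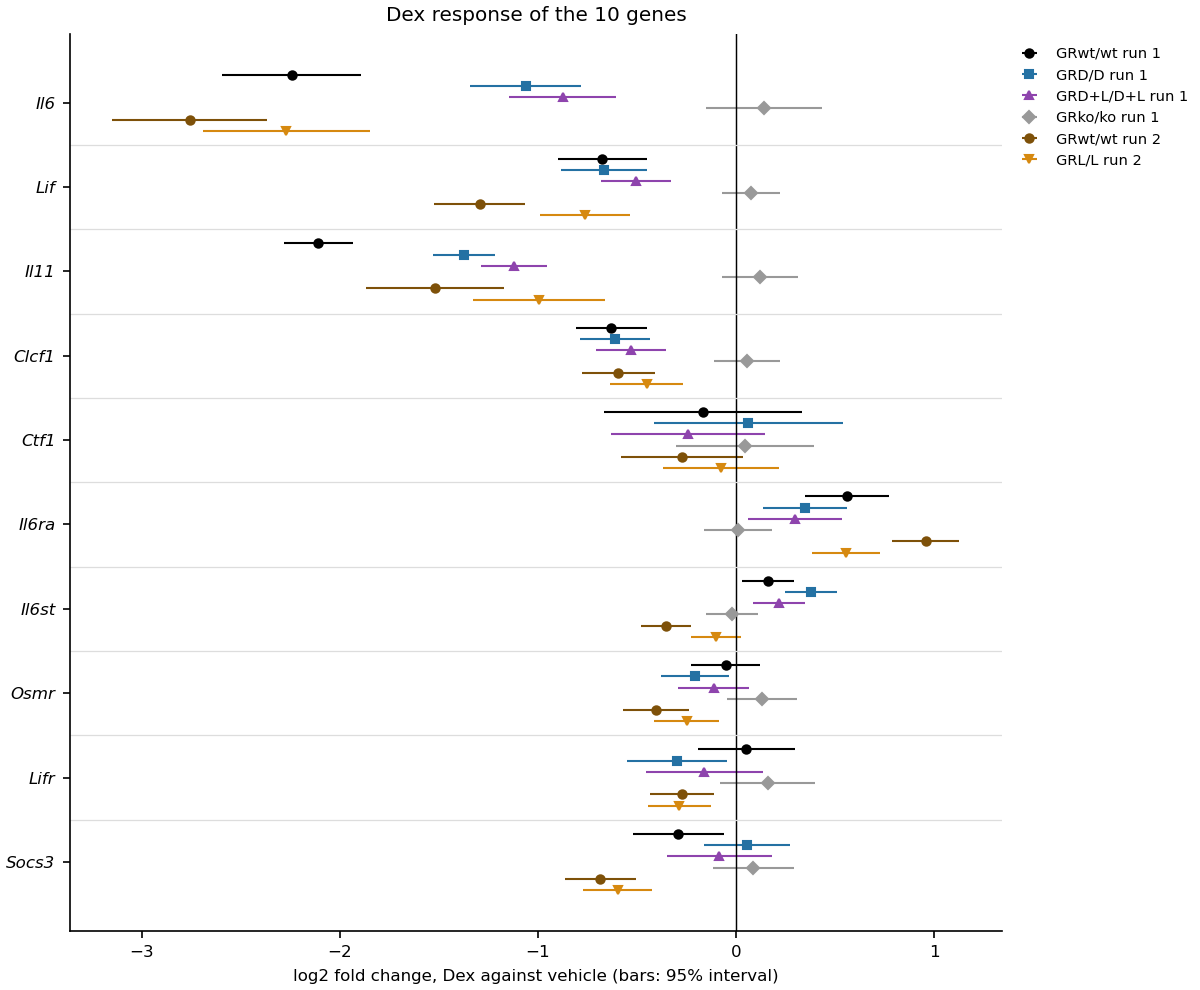
Log2 fold change of the 10 genes with Dex against vehicle (x axis) in each genotype and run, from 3 libraries per treatment; points are fitted values and bars 95% intervals. Il6, Lif, Il11 and Clcf1 lie below 0 in all groups but GRko/ko, whose intervals include 0 for all 10 genes.

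Il6 encodes the founding member of the family. Its level in GRwt/wt of run 1 was 8.76, 7.95 and 8.43 CPM with vehicle and at 2.13, 1.62 and 1.54 CPM with Dex, a level 4.73-fold lower (log2 fold change −2.24, 95% interval −2.59 to −1.89, adjusted p = 9.27e-13). Run 2 GRwt/wt cells had Il6 at 4.34, 4.49 and 5.05 CPM with vehicle and at 0.911, 0.608 and 0.526 CPM with Dex, 6.76-fold lower (log2 fold change −2.76, 95% interval −3.15 to −2.37, adjusted p = 2.10e-14). The treatments did not overlap in either run, and the lowest Dex levels rested on 14 to 36 counts per library.

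In GRD/D, Il6 was at 10.4, 11.5 and 9.10 CPM with vehicle and at 5.08, 4.36 and 5.42 CPM with Dex (2.09-fold lower, log2 fold change −1.06, 95% interval −1.34 to −0.78, adjusted p = 4.57e-07). GRD+L/D+L had Il6 at 10.3, 11.8 and 11.3 CPM with vehicle and at 5.99, 6.32 and 5.88 CPM with Dex (1.83-fold lower, log2 fold change −0.88, 95% interval −1.14 to −0.61, adjusted p = 1.27e-05). Both mutants therefore had Dex levels above every Dex library of GRwt/wt of the same run. In GRL/L, Il6 was at 3.11, 2.85 and 3.13 CPM with vehicle and at 0.708, 0.554 and 0.601 CPM with Dex, 4.82-fold lower (log2 fold change −2.27, 95% interval −2.69 to −1.85, adjusted p = 5.69e-11), and its Dex libraries lay within the range of those of GRwt/wt. In GRko/ko, the levels were 6.59, 4.25 and 5.44 CPM with vehicle and 4.58, 6.62 and 6.77 CPM with Dex, which overlapped (log2 fold change 0.14, 95% interval −0.15 to 0.44, adjusted p = 0.953).

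Il11 encodes interleukin-11, a ligand made by stromal cells. Run 1 GRwt/wt cells had it at 113, 87.4 and 101 CPM with vehicle and at 26.3, 20.4 and 23.1 CPM with Dex, 4.31-fold lower (log2 fold change −2.11, 95% interval −2.28 to −1.93, adjusted p = 1.26e-20). In GRD/D it was at 137, 137 and 125 CPM with vehicle and at 53.5, 53.0 and 47.5 CPM with Dex (2.59-fold lower, log2 fold change −1.37, adjusted p = 2.61e-15). GRD+L/D+L had Il11 at 84.9, 74.7 and 81.6 CPM with vehicle and at 35.3, 36.6 and 39.0 CPM with Dex (2.17-fold lower, log2 fold change −1.12, adjusted p = 2.17e-12). As for Il6, the Dex libraries of both mutants lay above all 3 of GRwt/wt. In GRko/ko it was at 24.7, 22.1 and 21.9 CPM with vehicle and at 26.2, 21.5 and 27.1 CPM with Dex, overlapping levels that were near the Dex levels of GRwt/wt (log2 fold change 0.12, 95% interval −0.07 to 0.31, adjusted p = 0.939).

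Run 2 held far less Il11 than run 1. GRwt/wt had 4.55, 4.78 and 4.90 CPM with vehicle (129 to 132 counts) and 1.39, 1.75 and 1.80 CPM with Dex (35 to 48 counts), 2.87-fold lower (log2 fold change −1.52, 95% interval −1.87 to −1.17, adjusted p = 4.12e-09). GRL/L had 3.95, 4.14 and 4.29 CPM with vehicle and 2.09, 1.75 and 2.33 CPM with Dex, 1.99-fold lower (log2 fold change −0.99, 95% interval −1.33 to −0.66, adjusted p = 1.35e-05). The treatments did not overlap in either genotype.

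Lif encodes leukaemia inhibitory factor. Its run 1 GRwt/wt level was 12.0, 11.1 and 12.5 CPM with vehicle and at 6.74, 8.17 and 7.43 CPM with Dex, 1.60-fold lower (log2 fold change −0.67, 95% interval −0.90 to −0.45, adjusted p = 1.67e-05). In GRD/D it was at 11.5, 12.2 and 14.2 CPM with vehicle and at 7.86, 7.70 and 8.44 CPM with Dex, 1.59-fold lower (log2 fold change −0.67, 95% interval −0.88 to −0.45, adjusted p = 2.33e-05). The 2 genotypes therefore had nearly the same vehicle and Dex levels, unlike for Il6. In GRD+L/D+L, with a higher vehicle level of 23.6, 24.6 and 27.4 CPM, the Dex libraries were at 17.0, 17.7 and 18.5 CPM, 1.42-fold lower (log2 fold change −0.51, 95% interval −0.68 to −0.33, adjusted p = 9.32e-05). In run 2, GRwt/wt had 8.25, 8.43 and 8.58 CPM with vehicle and 3.33, 2.93 and 4.02 CPM with Dex, 2.45-fold lower (log2 fold change −1.29, 95% interval −1.52 to −1.07, adjusted p = 8.14e-12). GRL/L had 5.91, 7.43 and 6.90 CPM with vehicle and 4.40, 3.75 and 3.78 CPM with Dex, 1.70-fold lower (log2 fold change −0.76, 95% interval −0.99 to −0.54, adjusted p = 1.62e-06). GRko/ko had the highest Lif of all groups, 53.0, 44.5 and 51.5 CPM with vehicle and 54.6, 50.7 and 51.6 CPM with Dex (log2 fold change 0.08, 95% interval −0.07 to 0.22, adjusted p = 0.945).

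Clcf1 encodes cardiotrophin-like cytokine factor 1, a ligand of the receptor for ciliary neurotrophic factor. With vehicle and Dex its group means were 30.7 and 19.8 CPM in GRwt/wt of run 1, 31.9 and 20.9 in GRD/D, and 32.8 and 22.8 in GRD+L/D+L. The fall was thus of like size in the 3 genotypes (log2 fold changes −0.63, −0.61 and −0.53). In run 2 the means were 16.5 and 11.0 CPM in GRwt/wt and 14.8 and 10.8 CPM in GRL/L (log2 fold changes −0.59 and −0.45). The 5 adjusted p-values ranged from 9.41e-07 to 0.000234, and no vehicle library overlapped a Dex library in these groups. In GRko/ko, Clcf1 was at 33.9, 31.8 and 26.2 CPM with vehicle and at 32.2, 31.5 and 31.9 CPM with Dex. Another protein-coding gene model on the same strand, AC109138.7, overlaps Clcf1, so its counts depend on how the authors assigned shared reads.

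Ctf1 encodes cardiotrophin-1, a ligand of gp130 and the LIF receptor. It was at 1.17 to 4.07 CPM (19 to 68 counts) in run 1 and at 2.38 to 3.72 CPM (60 to 111 counts) in run 2. Its Dex responses ranged from −0.27 in GRwt/wt of run 2 to 0.06 in GRD/D on the log2 scale, with adjusted p-values of 0.172 to 0.996 over the 6 groups. Without vehicle replicate 4, the response in GRwt/wt of run 2 was −0.42 and passed the test (adjusted p = 0.0481). The intervals were wide, such as −0.66 to 0.33 in GRwt/wt of run 1, so a change of the size seen for Clcf1 in that group lay within the interval. Ctf2 overlaps Ctf1 on the other strand, and the strand setting of the counting is not given in the sources used here. How reads from the stretch shared by the 2 genes were assigned is therefore not known.

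**Figure D2:**
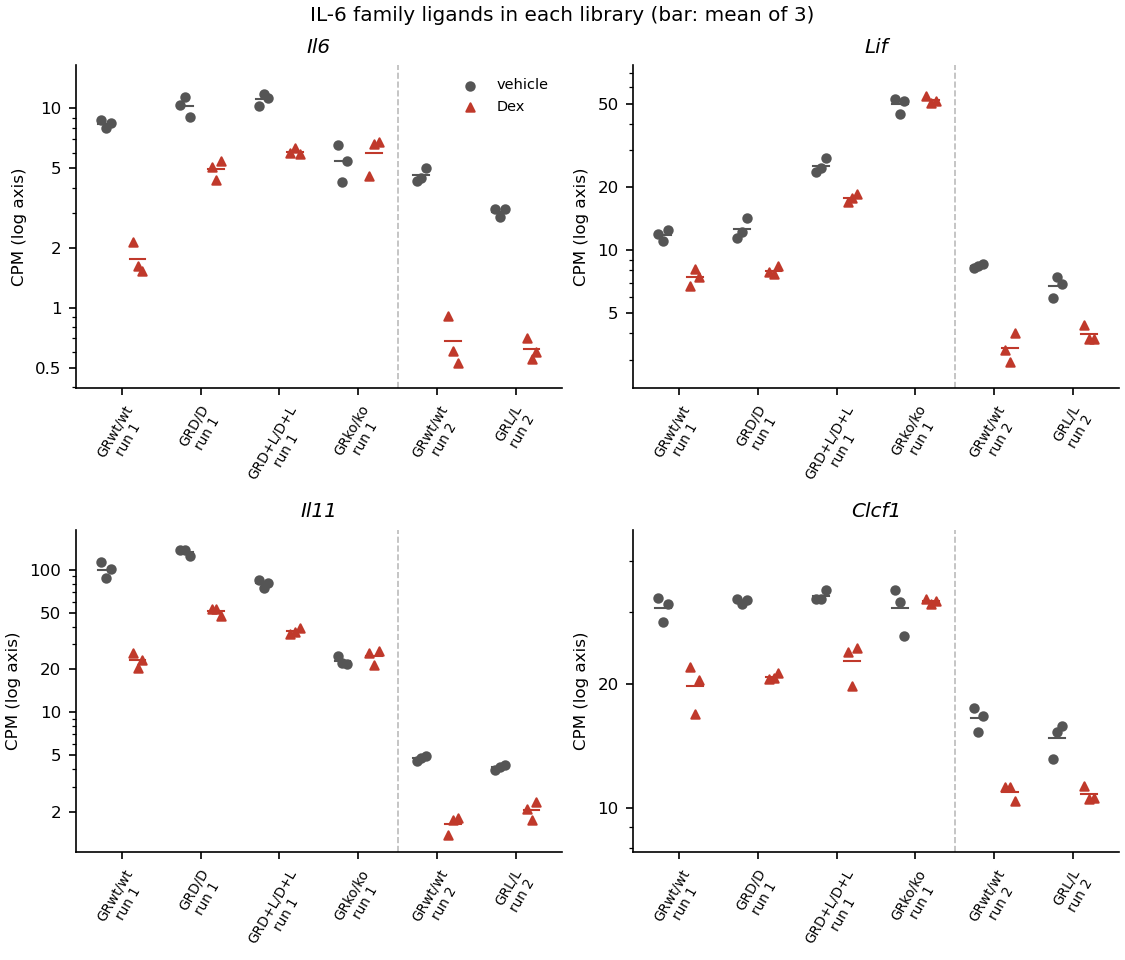
CPM of Il6, Lif, Il11 and Clcf1 in each of the 36 libraries (log y axis), with vehicle (grey circles) and Dex (red triangles); bars are means of 3 libraries, and the dashed line separates run 1 from run 2. Dex libraries lie below vehicle libraries in every group but GRko/ko, and Lif in GRko/ko lies at 44.5 to 54.6 CPM with either treatment.

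Il6ra encodes the chain that binds IL-6 itself and was the 1 member of the 10 that Dex raised in GRwt/wt and GRL/L. The GRwt/wt libraries of run 1 had it at 8.76, 10.6 and 9.80 CPM with vehicle and at 15.0, 14.3 and 13.6 CPM with Dex, 1.47-fold higher (log2 fold change 0.56, 95% interval 0.35 to 0.77, adjusted p = 0.000126). Those of run 2 had it at 10.5, 12.6 and 11.4 CPM with vehicle and at 20.4, 24.4 and 22.2 CPM with Dex, 1.94-fold higher (log2 fold change 0.96, 95% interval 0.79 to 1.13, adjusted p = 8.81e-12). In GRL/L it was at 12.1, 12.8 and 12.0 CPM with vehicle and at 16.6, 18.9 and 18.7 CPM with Dex, 1.47-fold higher (log2 fold change 0.55, 95% interval 0.39 to 0.72, adjusted p = 2.75e-06). Every Dex library was above every vehicle library of its group here.

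In GRD/D, Il6ra was at 11.0, 8.18 and 11.7 CPM with vehicle and at 13.0, 12.3 and 13.9 CPM with Dex (log2 fold change 0.35, 95% interval 0.14 to 0.56, adjusted p = 0.0233). The call rests on 1 low vehicle library, replicate 2, without which the log2 fold change was 0.20 (adjusted p = 0.255), and it was also lost without Dex replicate 3 (adjusted p = 0.108). GRD+L/D+L had Il6ra at 7.68, 8.06 and 7.35 CPM with vehicle and at 9.42, 9.76 and 9.24 CPM with Dex, which did not overlap, but the difference did not pass the test (log2 fold change 0.30, 95% interval 0.06 to 0.54, adjusted p = 0.170). In GRko/ko it was at 22.6 to 25.4 CPM with either treatment (log2 fold change 0.01). In GRwt/wt the summed macrophage markers, of which Il6ra is not one, overlapped between treatments. They were at 207 to 368 CPM with vehicle and 219 to 363 with Dex in run 1, and at 502 to 527 and 474 to 530 in run 2. By the test, 0 of the 12 markers fell and 1 rose with Dex in run 1, and 1 fell and 3 rose in run 2. In GRL/L, 5 fell and 2 rose, and their sum was 900 to 1070 CPM with vehicle and 763 to 967 with Dex. Their part in the Il6ra response was not tested. An antisense gene model, Gm42809, overlaps Il6ra.

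Il6st encodes gp130, the chain that all these cytokines share. In GRwt/wt its fitted Dex response was positive in run 1, where it did not pass the test, and negative in run 2. In GRD/D it was at 236, 245 and 272 CPM with vehicle and at 331, 321 and 324 CPM with Dex, 1.30-fold higher (log2 fold change 0.38, 95% interval 0.25 to 0.51, adjusted p = 5.72e-05). GRwt/wt of run 1 had 233, 265 and 249 CPM with vehicle and at 273, 281 and 282 CPM with Dex, which did not overlap but did not pass the test (log2 fold change 0.16, 95% interval 0.03 to 0.29, adjusted p = 0.0933). It passed without Dex replicate 4 of run 2, which shares the estimate of spread (adjusted p = 0.00932). The same response also passed with no filter on low counts and with only the libraries of run 1 (adjusted p = 0.0225 to 0.0247). GRD+L/D+L had Il6st at 231, 236 and 219 CPM with vehicle and at 260, 274 and 264 CPM with Dex (log2 fold change 0.22, adjusted p = 0.0416). This last call was lost whenever any 1 of its 6 libraries was left out, with adjusted p-values of 0.0618 to 0.204.

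In GRwt/wt of run 2, Il6st was at 464, 461 and 469 CPM with vehicle and at 299, 396 and 395 CPM with Dex, 1.28-fold lower (log2 fold change −0.35, 95% interval −0.48 to −0.23, adjusted p = 2.48e-05). The lowest value came from Dex replicate 4, without which the log2 fold change was −0.23 (adjusted p = 0.000294). In GRL/L it was at 515, 511 and 498 CPM with vehicle and at 472, 482 and 467 CPM with Dex (log2 fold change −0.10, 95% interval −0.23 to 0.03, adjusted p = 0.301). GRko/ko had 225 to 238 CPM with vehicle and 216 to 235 CPM with Dex.

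Osmr and Lifr, the chains for oncostatin M and LIF, moved little. Osmr fell in GRwt/wt of run 2 from 166, 163 and 171 CPM to 109, 131 and 138 CPM (log2 fold change −0.40, 95% interval −0.57 to −0.24, adjusted p = 0.000147). In GRL/L it was at 148, 156 and 154 CPM with vehicle and at 131, 125 and 129 CPM with Dex (log2 fold change −0.25, adjusted p = 0.0261), a call lost without any 1 of 4 of its 6 libraries (Dex and vehicle replicates 2 and 3, adjusted p = 0.0602 to 0.0955). Its responses in run 1 lay between −0.21 in GRD/D and 0.13 in GRko/ko, and none passed the test. In GRD/D, however, Osmr was at 135 to 147 CPM with vehicle and 118 to 128 CPM with Dex, which did not overlap. That response passed with no filter on low counts (adjusted p = 0.00956) and without Dex replicate 3 of GRko/ko (adjusted p = 0.0320). Lifr had log2 fold changes of −0.27 in GRwt/wt of run 2 (adjusted p = 0.00682) and −0.29 in GRL/L (adjusted p = 0.00763). The first was lost without Dex replicate 4 (adjusted p = 0.0837) and the second without Dex replicate 2 of GRL/L (adjusted p = 0.0761). In run 1 Lifr was at 5.54 to 12.9 CPM, with no call when all libraries were used, and in run 2 at 30.4 to 44.8 CPM. Without vehicle replicate 2 of GRD/D, its response in GRD/D was −0.45 and passed the test (adjusted p = 0.0172).

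Socs3 encodes the feedback inhibitor of gp130 signalling. Its level in run 2 GRwt/wt was 26.6, 27.9 and 30.8 CPM with vehicle and at 18.9, 17.6 and 16.5 CPM with Dex, 1.61-fold lower (log2 fold change −0.69, 95% interval −0.86 to −0.51, adjusted p = 7.14e-08). In GRL/L it was at 31.6, 27.4 and 27.6 CPM with vehicle and at 19.9, 17.7 and 19.5 CPM with Dex, 1.51-fold lower (log2 fold change −0.60, 95% interval −0.77 to −0.42, adjusted p = 1.37e-06). Socs3 in GRwt/wt of run 1 was at 14.9, 15.8 and 14.9 CPM with vehicle and at 10.6, 13.9 and 12.8 CPM with Dex, lower in all 3 Dex libraries than in any vehicle library but short of the threshold (log2 fold change −0.29, 95% interval −0.52 to −0.06, adjusted p = 0.0855). It passed the test without Dex replicate 2 (adjusted p = 0.0464). Vehicle and Dex overlapped in the other 3 genotypes, with log2 fold changes of 0.06 in GRD/D (adjusted p = 0.803), −0.08 in GRD+L/D+L (adjusted p = 0.885) and 0.09 in GRko/ko (adjusted p = 0.967).

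**Figure D3:**
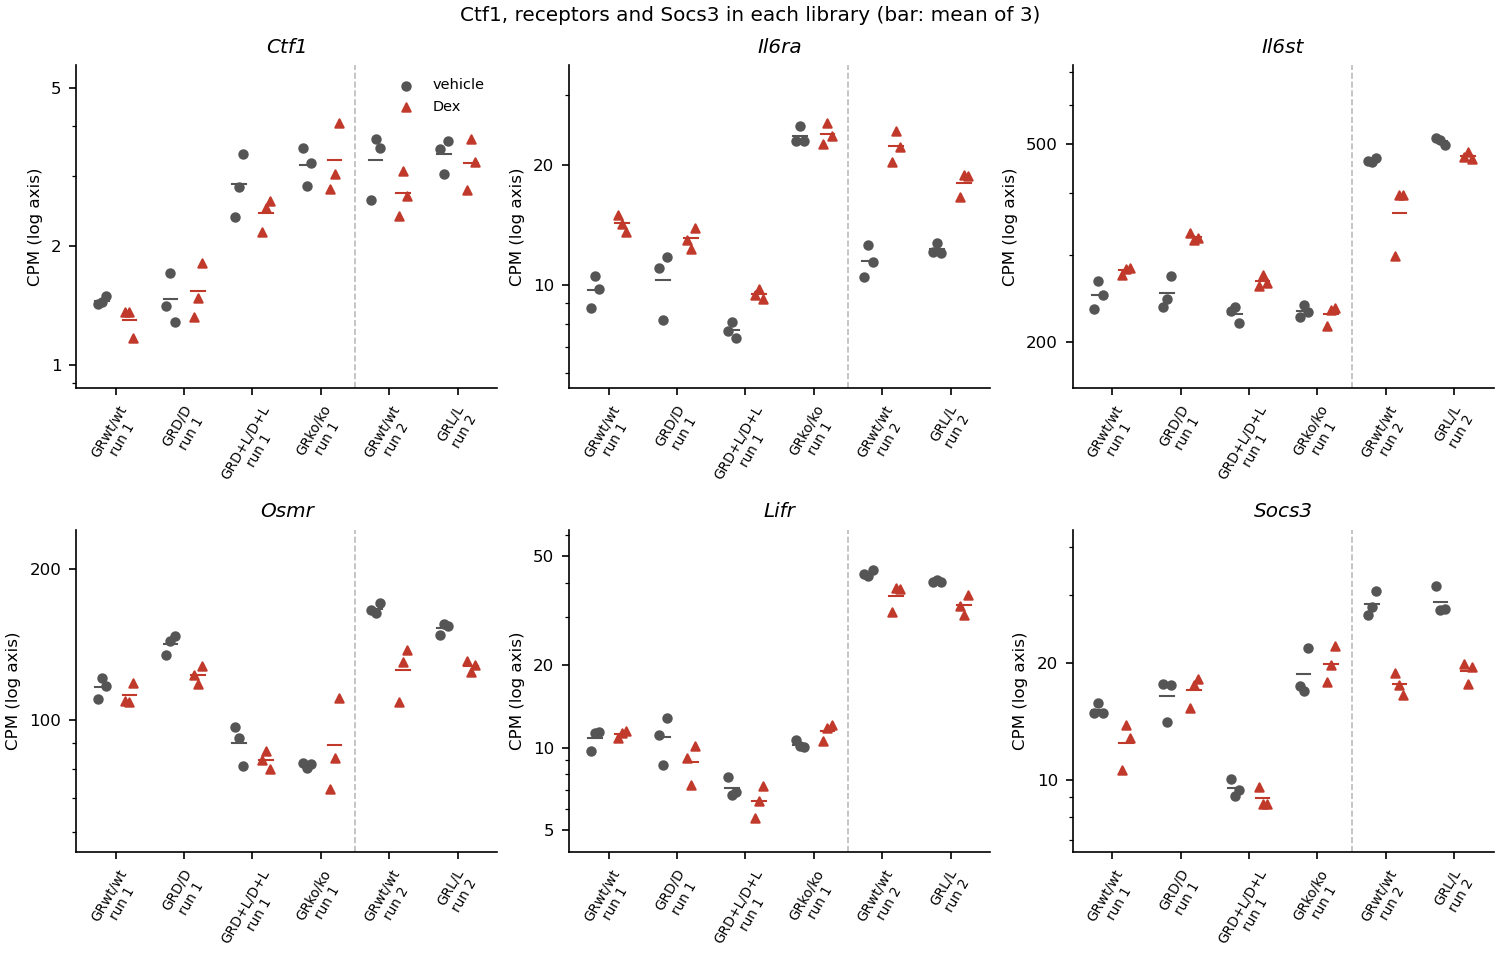
CPM of Ctf1, Il6ra, Il6st, Osmr, Lifr and Socs3 in each of the 36 libraries (log y axis), with vehicle (grey circles) and Dex (red triangles); bars are means of 3 libraries, and the dashed line separates run 1 from run 2. Il6ra lies higher with Dex in GRwt/wt of both runs, and Il6st, Lifr and Socs3 lie higher in run 2 than in GRwt/wt of run 1.

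The question of whether a mutant responded differently from the wild type was tested as a difference of the Dex responses within a run. The response of Il6 was weaker in GRD/D than in GRwt/wt by 1.18 on the log2 scale (95% interval 0.71 to 1.65, adjusted p = 0.000898), so that 47.4% of the wild-type log2 change was seen. In GRD+L/D+L it was weaker by 1.37 (95% interval 0.91 to 1.82, adjusted p = 7.64e-05), leaving 39.0%. Il11 was likewise less responsive, by 0.74 in GRD/D (95% interval 0.50 to 0.97, adjusted p = 3.76e-05, 65.1% of the wild-type log2 change) and by 0.99 in GRD+L/D+L (95% interval 0.75 to 1.23, adjusted p = 2.45e-07, 53.1%).

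These were the 2 members that differed in GRD/D, against 3.29% of all genes, and the 2 that differed in GRD+L/D+L, against 3.23%. Without Dex replicate 4 of GRwt/wt in run 2, the Il6st difference in GRD/D was 0.21 and passed the test (adjusted p = 0.0442). For Lif the difference was 0.01 in GRD/D (95% interval −0.31 to 0.32) and 0.17 in GRD+L/D+L (−0.12 to 0.45), and for Clcf1 it was 0.02 (−0.24 to 0.27) and 0.10 (−0.15 to 0.35). The GRwt/wt responses of Lif and Clcf1 were only −0.67 and −0.63, so even a full loss would be smaller than the Il6 difference. A full loss lay outside these intervals, but a loss in proportion to that of Il6 was not tested. For Socs3 the differences were 0.35 in GRD/D (adjusted p = 0.343) and 0.21 in GRD+L/D+L (adjusted p = 0.737). Between GRD+L/D+L and GRD/D themselves, 0 of the 10 responses differed, against 0.0775% of all genes (12 genes). The difference was 0.19 for Il6 (95% interval −0.21 to 0.58) and 0.25 for Il11 (0.02 to 0.48, adjusted p = 0.420), the 1 member with an unadjusted p under 0.05. DESeq2 also called 0 of the 10, and 40 genes over all. These comparisons share the GRwt/wt libraries of run 1.

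In GRL/L, 0 of the 10 responses differed from GRwt/wt of run 2 by this test, against 1.85% of all genes, while 4 had an unadjusted p under 0.05 (Lif, Il11, Il6ra and Il6st). Their differences were 0.53 for Lif (95% interval 0.20 to 0.86, adjusted p = 0.0885), 0.53 for Il11 (0.02 to 1.03, adjusted p = 0.370), −0.40 for Il6ra (−0.64 to −0.16, adjusted p = 0.0733) and 0.25 for Il6st (0.07 to 0.43, adjusted p = 0.173). For Il6 the difference was 0.49 (−0.17 to 1.15, adjusted p = 0.581). The fitted changes were nearer to 0 in GRL/L for every one of the genes but Lifr (−0.29 against −0.27). DESeq2 also called 0 of the 10. The Il6ra difference passed the test without GRD/D vehicle replicate 2 or 3, GRwt/wt Dex replicate 4 or GRwt/wt vehicle replicate 5 (adjusted p = 0.0267 to 0.0464), and the Lif difference without GRwt/wt Dex replicate 6 (adjusted p = 0.0291).

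In GRko/ko, 5 responses differed from GRwt/wt, against 8.48% of all genes. The difference was 2.38 for Il6 (95% interval 1.92 to 2.85), 2.23 for Il11 (1.97 to 2.49), 0.75 for Lif (0.48 to 1.02), 0.68 for Clcf1 (0.44 to 0.93) and −0.55 for Il6ra (−0.82 to −0.27), with adjusted p-values of 1.04e-15 to 0.00585. The same genotype also differed between the runs: in GRwt/wt, 2 responses were lower in run 2 than in run 1, against 7.09% of all genes tested. They were Lif by −0.62 (95% interval −0.95 to −0.29, adjusted p = 0.0110) and Il6st by −0.52 (−0.70 to −0.33, adjusted p = 0.000111). The Lif difference was lost without Dex replicate 2 of run 1 or Dex replicate 5 of run 2 (adjusted p = 0.0526 and 0.0571). GRL/L and the run-1 mutants were therefore not compared with each other.

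**Figure D4:**
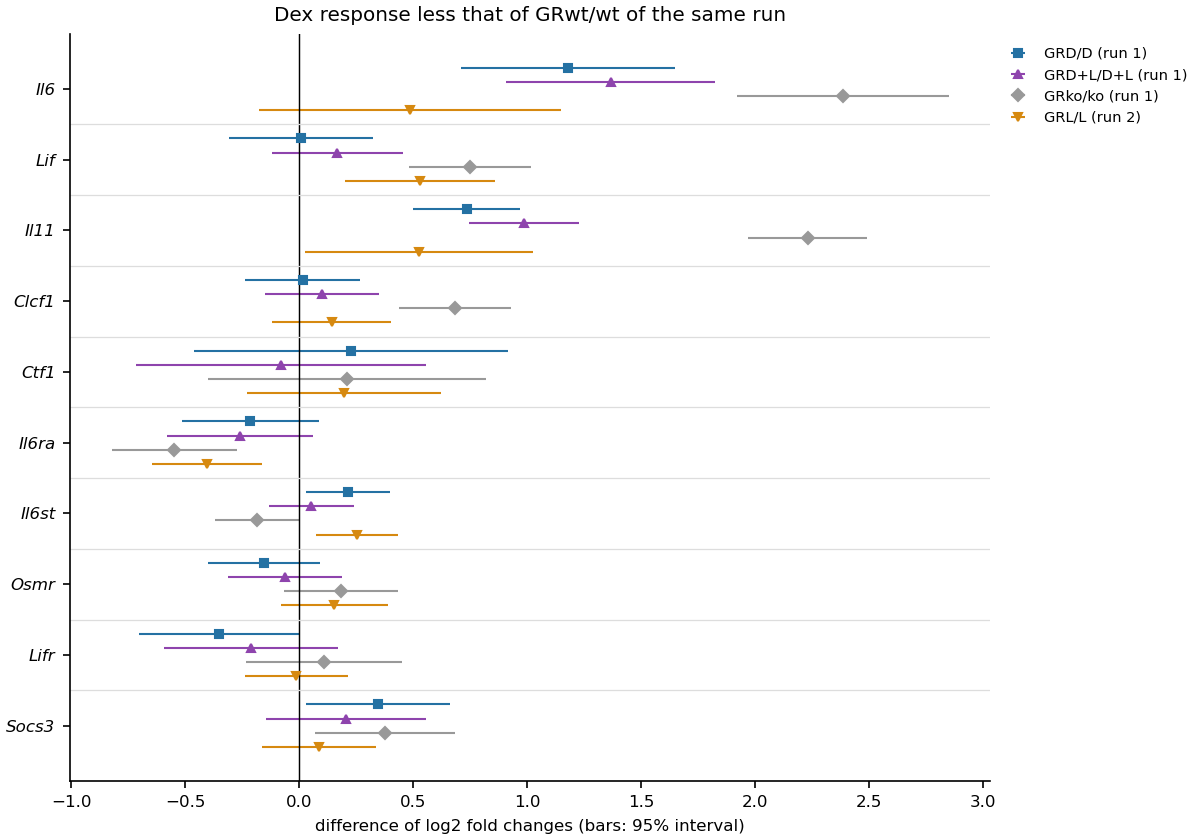
Dex response of each mutant less that of GRwt/wt of the same run (x axis, difference of log2 fold changes) for the 10 genes; points are fitted values and bars 95% intervals. Il6 and Il11 lie above 0 in GRD/D, GRD+L/D+L and GRko/ko, and the Lif and Clcf1 intervals include 0 in GRD/D and GRD+L/D+L.

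The genotypes also differed before Dex, which sets the level from which each response was measured. With vehicle, 7 of the 10 genes differed between GRko/ko and GRwt/wt, against 45.7% of all genes. Lif was 4.18-fold higher (log2 difference 2.06, 95% interval 1.89 to 2.24, adjusted p = 3.07e-21), and Il11 was 4.39-fold lower (log2 difference −2.13, 95% interval −2.31 to −1.96, adjusted p = 8.35e-22). Il6 and Osmr were also lower (−0.63 and −0.51), and Ctf1 and Socs3 higher (1.13 and 0.30). The Socs3 call rests on vehicle replicate 3 of GRko/ko, without which the log2 difference was 0.18 (adjusted p = 0.218), and was also lost without GRwt/wt vehicle replicate 1 or 3. The part of the cartilage markers and of the muscle marker sum (nearly all Des), higher in GRko/ko as given above, was not tested.

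Il6ra was 2.44-fold higher in GRko/ko (log2 difference 1.29, 95% interval 1.09 to 1.49, adjusted p = 7.84e-14), and 1.26-fold lower in GRD+L/D+L (−0.33, adjusted p = 0.0295, lost without any 1 of 4 of the 6 libraries). Macrophages express Il6ra, and the 12 macrophage markers were highest in GRko/ko and lowest in GRD+L/D+L, as given above. In GRD/D and GRL/L, whose macrophage markers were also above those of GRwt/wt, Il6ra differed by 0.09 and 0.10 on the log2 scale (adjusted p = 0.717 and 0.565). The part of the macrophage markers in the Il6ra levels was tested in none of these genotypes.

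In GRD+L/D+L, 8 of the 10 genes differed from GRwt/wt with vehicle, against 29.9% of all genes. Lif was 2.12-fold and Ctf1 1.96-fold higher (log2 differences 1.09 and 0.97, adjusted p = 1.04e-11 and 0.000501). Il6 was higher by 0.41 (adjusted p = 0.0129, lost without vehicle replicate 2 of either genotype). Socs3 and Lifr were 1.60-fold and 1.52-fold lower (−0.67 and −0.60), and Osmr and Il11 were lower by smaller amounts (−0.37 and −0.32). Of the 8 fibroblast markers, 5 were lower and 0 higher there, and the skeletal muscle marker sum, nearly all Des, was higher, as given above. The part of either in these differences was not tested.

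In GRD/D, 2 members differed with vehicle, against 9.55% of all genes: Il11 was higher by 0.40 on the log2 scale (95% interval 0.25 to 0.55, adjusted p = 0.000179) and Osmr by 0.29 (0.12 to 0.46, adjusted p = 0.0230, lost without any 1 of 4 of the 6 libraries). In GRL/L, 2 members differed, against 11.3%: Il6 was 1.53-fold lower (log2 difference −0.61, 95% interval −0.89 to −0.33, adjusted p = 0.00231) and Lif was lower by 0.32 (log2 difference −0.32, adjusted p = 0.0272). The Lif call was lost without any 1 of 5 of the 6 libraries (adjusted p = 0.0524 to 0.207). The part of the cell type markers that differed in GRL/L, as given above, was not tested. Without Dex replicate 4 of GRwt/wt in run 2, Il6st also passed the vehicle test in GRD+L/D+L (−0.13), GRko/ko (−0.11) and GRL/L (0.13). The adjusted p-values were 0.0269, 0.0346 and 0.0399.

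**Figure D5:**
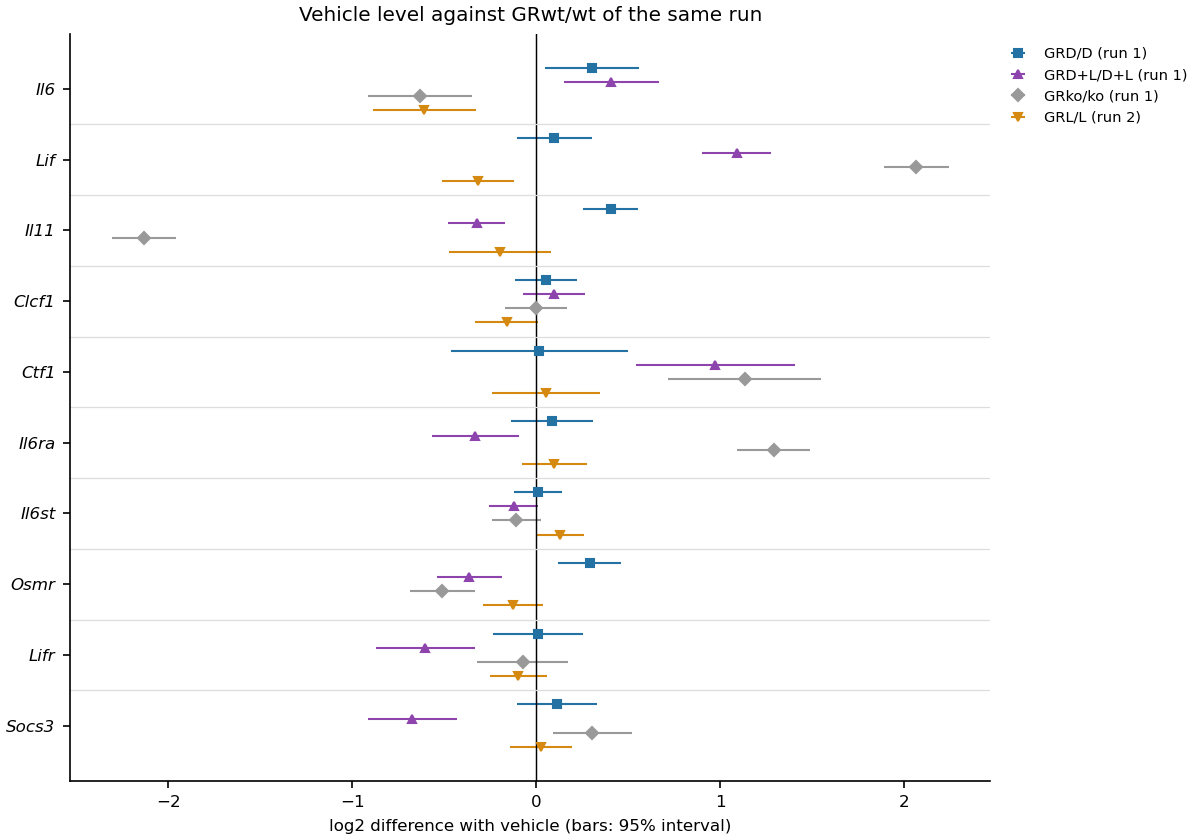
Vehicle level of each mutant against GRwt/wt of the same run (x axis, log2 difference) for the 10 genes; points are fitted values and bars 95% intervals. Lif lies at 1.09 in GRD+L/D+L and 2.06 in GRko/ko, and Il11 lies at −2.13 in GRko/ko.

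Levels between genes were compared as CPM per kilobase of exon (GENCODE M21, GRCm38). In GRwt/wt of run 1 with vehicle, Il11 came first at 48.3 ± 6.2 (SD, n = 3), followed by Il6st (22.4 ± 1.5), Osmr (9.59 ± 0.46), Clcf1 (8.07 ± 0.54), Socs3 (5.25 ± 0.19), Il6 (3.45 ± 0.17), Lif (2.72 ± 0.16), Il6ra (1.12 ± 0.10), Lifr (1.01 ± 0.09) and Ctf1 (0.80 ± 0.02). Il6ra and Lifr were the neighbours whose SDs overlapped. In GRwt/wt of run 2 the order was Il6st (41.8 ± 0.4), Osmr (13.8 ± 0.3), Socs3 (9.83 ± 0.73), Clcf1 (4.35 ± 0.29), Lifr (4.03 ± 0.12), Il11 (2.28 ± 0.09), Lif (1.94 ± 0.04), Il6 (1.90 ± 0.15), Ctf1 (1.80 ± 0.33) and Il6ra (1.33 ± 0.12). Clcf1 and Lifr, Lif and Il6, and Il6 and Ctf1 overlapped there. The RNA of Il6ra was thus at a small part of the level of Il6st RNA in both runs, and the proteins were not measured.

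Other genes of the pathway were taken from lists chosen by function. Of the 9 relay genes (JAK kinases, STATs, Ptpn11 and Gab1), Dex lowered 2 in GRwt/wt of run 1 (Jak2 and Tyk2), 6 in GRwt/wt of run 2, 4 in GRL/L, 1 in GRD/D (Jak2), and 0 in GRD+L/D+L and GRko/ko, and raised 0 in any group. Of all genes, Dex lowered 6.2%, 16.7%, 10.4%, 6.24%, 1.92% and 0% in the same order of groups. Their median log2 fold change was −0.15 in run 1 and −0.24 in run 2 of GRwt/wt. In run 2, Stat3, the main carrier of the signal, was at −0.24 in GRwt/wt and −0.18 in GRL/L (adjusted p = 3.59e-05 and 0.00229). No relay gene changed 2-fold, and Jak2, Tyk2 and Stat3 are named after their values were seen.

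Of the 11 other inhibitors, Socs5, a relative of Socs3, fell with Dex in all 5 groups with a GR, by −0.66 and −0.60 in GRwt/wt of run 1 and run 2, −0.49 in GRD/D, −0.40 in GRL/L and −0.42 in GRD+L/D+L (adjusted p at most 4.68e-11). Socs2 rose in the same 5 groups, by 0.34 to 0.77 (adjusted p at most 0.0399). Both are named after their values were seen. In these groups 1 to 3 of the 11 fell and 1 or 2 rose, such as 2 and 2 in GRwt/wt of run 2, where 16.7% of all genes fell and 14.9% rose, and the list median lay between −0.09 and −0.01. Ptpn6, a phosphatase of blood cells, differed with vehicle by 4.26 in GRko/ko, 1.20 in GRD/D and −1.85 in GRD+L/D+L on the log2 scale, in the order of the macrophage markers, whose part was not tested.

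Of the 12 STAT3 target genes, 7 rose and 3 fell with Dex in GRwt/wt of run 1, 8 rose and 4 fell in run 2, 7 rose and 4 fell in GRL/L, 4 rose and 1 fell in GRD/D, and 1 rose and 1 fell in GRD+L/D+L. Of all genes, 7.74% rose and 6.2% fell in run 1 of GRwt/wt, 14.9% and 16.7% in run 2, 8.79% and 10.4% in GRL/L, 5.63% and 6.24% in GRD/D, and 3.08% and 1.92% in GRD+L/D+L. The 2 that changed at least 2-fold were Cebpd, a C/EBP transcription factor, and Bcl2l1, which encodes the survival protein Bcl-xL. Cebpd rose by 1.64 ± 0.11 (SE) on the log2 scale in GRwt/wt of run 2 and by 1.21 ± 0.11 in GRL/L, and Bcl2l1 by 1.15 ± 0.04 in GRwt/wt of run 2. Both are also known as direct GR targets. The median log2 fold change of the list was 0.25 and 0.38 in the 2 runs of GRwt/wt. Bcl3 was higher in GRko/ko than in GRwt/wt with vehicle (log2 difference 1.22, adjusted p = 6.93e-07).

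Of the 12 regulators of Il6 transcription or of its mRNA, 3 fell and 3 rose with Dex in GRwt/wt of run 1, 4 and 3 in run 2, 4 and 2 in GRL/L, 3 and 2 in GRD/D, and 2 and 1 in GRD+L/D+L. These counts stand beside the same shares of all genes, from 1.92% to 16.7% lower and from 3.08% to 14.9% higher. Nfkbiz, an activator of Il6, fell by −0.93 and −0.45 in the 2 runs of GRwt/wt, −0.76 in GRD/D, −0.33 in GRL/L and −0.56 in GRD+L/D+L. Nfkbia, the inhibitor of NF-kappaB, rose in GRwt/wt by 0.63 and 0.88 and in GRL/L by 0.79, and its response was lower in GRD+L/D+L than in GRwt/wt by −0.64 (adjusted p = 0.000479). Nfkbiz and Nfkbia are named after their values were seen. Arid5a, which stabilizes Il6 mRNA, was higher in GRko/ko than in GRwt/wt with vehicle (log2 difference 1.03, adjusted p = 1.05e-08). In GRko/ko, 0 genes of these lists changed with Dex.

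Among other ligands of the family, Cntf and Il27 did not pass the filter on low counts. Osm, the ligand of Osmr, and Ebi3 were near the detection limit in GRwt/wt of run 1 with vehicle (0.0877 and 0.0216 CPM) and higher in GRD/D (0.691 and 0.318 CPM) and GRko/ko (0.554 and 2.34 CPM). The macrophage markers were also higher there and in GRL/L, and their part was not tested. Of the 3 other receptors, Il11ra1, the chain that binds IL-11, rose in GRwt/wt of run 2 (0.25, adjusted p = 0.00393) and in GRD/D (0.31, adjusted p = 0.0109). Il11ra1 has near-identical copies in the mouse genome, so its counts are uncertain.

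The genes whose level across the 36 libraries was most like that of Il6 (Pearson's r of log2 CPM centred within each run, over 11781 genes whose mean count was 50 or more) were Has2 (r = 0.928), Ptgs2 (r = 0.922) and Socs5 (r = 0.920). With Dex, Has2 had log2 fold changes of −1.51 and −2.69 in GRwt/wt of run 1 and run 2, −0.84 in GRD/D, −1.78 in GRL/L, −0.53 in GRD+L/D+L and 0.03 in GRko/ko. Ptgs2, which encodes cyclooxygenase-2, had −1.12 and −2.21, −0.93, −1.60, −0.55 and −0.01 in the same order. For Lif they were Ttc9 (r = 0.960), Col8a1 (r = 0.947) and Tnfsf15 (r = 0.943), and for Socs3 they were Adcy7 (r = 0.925), Il1rl2 (r = 0.925) and Abcg1 (r = 0.917). The libraries share genotype and treatment groups, so these values describe likeness and carry no test.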

How the data were processed

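RNA of 36 MEF libraries was sequenced by the authors (TruSeq, NextSeq). Per the submitters' notes and the methods of the study, reads were aligned to mm10 with HISAT2 2.1.0, and uniquely mapped reads were counted per gene with featureCounts 2.0.0, so the deposited values are raw counts. The annotation release and strand setting are not given in the sources used here. Gene symbols and positions were taken from GENCODE M21 (GRCm38).

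Counts were fitted with edgeR 4.0.16 (R 4.3.3, limma 3.58.1): filterByExpr over the 12 groups, TMM, and the quasi-likelihood test with Benjamini-Hochberg adjustment over 15489 genes, which held 99.9% of counts. Calls are at an adjusted p of at most 0.05. Each group of genotype, run and treatment had its own term, whereas the study's DESeq2 formula has 1 wild-type response over both runs, which was run as an alternative. CPM are TMM-normalised, and intervals are 95% intervals of the fit. The 36 pairs of replicates differed by more than sampling noise (chi-square per degree of freedom 1.55 to 24.2). The total count per library, from 15280166 to 28662608, limits precision for the lowest genes.

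The members and lists were chosen with earlier results of these data known. All 10 members are named, and of other lists those genes with an adjusted p of at most 0.05 and an absolute log2 value of at least 1, apart from exceptions marked in the text. One list entry is not reported here. For Il6, Lif and Socs3, the 3 most alike genes are named. Alternatives were DESeq2 1.42.0 as the test, DESeq2 size factors, no filter, the study's formula, a replicate block, only the libraries of 1 run, a fold limit, and leaving out each library in turn. Scripts were tested on simulated data. Figures were drawn with matplotlib 3.10.9.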

Additional observations from a re-analysis of the deposited data

Results flagged for a closer look

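The tests of a difference between Dex responses picked out 11 values, all on the log2 scale and none weighed further. The response of Il6 differed from that of GRwt/wt by 1.18 in GRD/D, 1.37 in GRD+L/D+L and 2.38 in GRko/ko. That of Il11 differed by 0.74 in GRD/D, 0.99 in GRD+L/D+L and 2.23 in GRko/ko. In GRko/ko the response also differed by 0.75 for Lif, 0.68 for Clcf1 and −0.55 for Il6ra. Between the runs of GRwt/wt (run 2 less run 1), it differed by −0.62 for Lif and −0.52 for Il6st. Groups of 3 libraries are too small for a test of single outlying libraries.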

How the results depend on the processing

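Over 6820 values of single genes under the alternatives, 6682 stayed on their side of the threshold, 88 lost a call and 50 gained one. These losses include those made by the fold limit alone. Of the called values 0 changed sign, and 51 of 63 called results were lost under no alternative but the fold limit. With a log2 limit of 1, the Dex calls became 2 and 3 in GRwt/wt of run 1 and run 2, 2 in GRD/D, 1 in GRL/L and 1 in GRD+L/D+L. Of all 15489 genes tested, 311, 695, 152, 396 and 62 passed in the same order. Response differences became 1 in GRD/D, 1 in GRD+L/D+L, 2 in GRko/ko and 0 between runs, against 95, 93, 261 and 160 genes. Vehicle differences became 0 in GRL/L, 0 in GRD/D, 1 in GRD+L/D+L and 4 in GRko/ko, against 203, 329, 863 and 2200 genes. The study's formula gave 1, 5 and 4 response differences in GRL/L, GRD/D and GRD+L/D+L, where it compares with a response pooled over runs. Of all genes, 115, 1105 and 1227 differed by that formula. It also gave 1 vehicle difference in GRD/D, against 1958 of all genes. Under it Il6st and Lifr were not called in GRwt/wt (adjusted p = 0.225 and 0.0675), nor Osmr in GRL/L (0.0566), nor Il6st in GRD+L/D+L (0.242). The pooled Il6st response was −0.10, against 0.16 (not called) in run 1. Vehicle calls lost under it also included Il6ra in GRD+L/D+L (−0.19, adjusted p = 0.214), Lif in GRL/L (0.254) and Socs3 in GRko/ko (0.146), and it gained response differences of Osmr and Socs3 in GRko/ko (0.0311 and 0.00111). Only the libraries of run 2 gave 1 vehicle difference in GRL/L, against 1503 of 15241 genes tested. No filter gave 5 differences between runs, against 1119 of 32584 genes tested.

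The replicate block gave 1 response difference in GRL/L (Il6ra, adjusted p = 0.0388) and 5 between runs, against 248 and 1038 of all genes. Whether the replicate numbers pair the samples was not known. Of 18 same-numbered pairs, 1 correlated above 0.1 (−0.0787 to 0.116), and 7 of 18 correlated best with their own number. Such low correlations do not show that the cultures were different, so the check cannot decide the pairing. Leaving out 1 library gave 0 to 1 response differences in GRL/L, 1 to 4 between runs, and 1 to 3 and 1 to 2 vehicle differences in GRL/L and GRD/D. The same ranges over all genes were 190 to 335, 835 to 1198, 1170 to 2033 and 934 to 2208. Over all genes, the study's formula called 5207 with Dex in GRwt/wt against 2159 in run 1 and 4901 in run 2. Response differences under it numbered 1105 against 509 in GRD/D, 1227 against 501 in GRD+L/D+L, 2310 against 1314 in GRko/ko and 115 against 286 in GRL/L. No filter called 110 genes against 0 with Dex in GRko/ko, and the difference between GRD+L/D+L and GRD/D held 0 to 87 genes against 12. Where no construction is named, the cause was not tested. Depth limits Il6 and Il11 in run 2 with Dex and Ctf1 throughout.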
